A study of Mus musculus with 4 samples.

Results

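A set of 10 genes around the kinase complex mTORC1 was followed in mouse embryonic stem cells (ESCs) supplemented with lactate. The genes take part in nutrient sensing upstream of it, restrain it or, as with Eif4ebp1, encode a substrate of it. They were chosen by symbol and are Sesn2, Castor1, Depdc5, Flcn, Fnip1, Fnip2, Rragd, Ddit4, Ddit4l and Eif4ebp1, of 55335 genes in the count table. RNA-seq was performed on the ESC line AB2.2, with 2 libraries labelled control and 2 libraries of cells kept for 24 h in 50 mM lactate. The cells of all 4 libraries grew on mouse embryonic fibroblast (MEF) feeder cells in medium that held the GSK3 inhibitor CHIR99021 at 3 µM, the MEK inhibitor PD0325901 at 1 µM, leukemia inhibitory factor at 1000 U/ml and 15% fetal bovine serum. The comparison asks which transcripts change with lactate, in 1 ESC line and at 1 dose and time. Reads assigned to genes numbered 18067562 and 19077885 in the control libraries, against 18542554 and 18948861 in the lactate libraries.

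mTORC1 sits on the lysosome and drives protein synthesis and cell growth when amino acids and growth factors are sufficient. Amino acids act through sensors that bind leucine or arginine, the GATOR complexes and the Rag GTPases, which recruit mTORC1 to the lysosome. Growth factor and stress signals act through the TSC complex and Rheb. The 4E-BP proteins are substrates of mTORC1 that hold back cap-dependent translation until they are phosphorylated. ESCs depend on mTORC1 for growth and proliferation, and several of these genes are known to respond to amino acid shortage or stress through the transcription factor ATF4 or to the MiT/TFE factors of lysosome biogenesis.

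The pluripotent identity of the cells was checked on 10 markers, all of them detected. TPM, a level per transcript length scaled to the same total in each library, was estimated by RSEM. The summed TPM of the markers was 5531 and 7941 in the control, against 6346 and 10010 in the lactate libraries. Dppa5a was the most abundant, at 2538.77 and 4683.2 TPM in the control and 2899.74 and 6595.9 TPM in the lactate libraries. The sum and Dppa5a were higher in replicate 2 of each group. By edgeR none of the 10 markers was called, and 0.552% of all genes tested were called higher with lactate and 0.348% lower. At an unadjusted p under 0.05, against 11.7% and 11.4% of all genes tested, Sox2, Zfp42, Tbx3 and Klf4 were higher with lactate, at log2 fold changes of 0.56, 0.52, 0.43 and 0.39, and Utf1 was lower at -0.54. Transcripts of all 18 fibroblast markers were detected too and none was at 0, but whether they came from the feeder cells was not tested. They summed to 487.8 and 662.9 TPM in the control and 572.8 and 606.7 TPM in the lactate libraries, where the control range encloses both lactate values. Acta2, for smooth muscle actin, led that list at 165.13 and 191.68 TPM in the control and 187.17 and 170.19 TPM in the lactate libraries. Of the 17 fibroblast markers tested none was called by edgeR. At an unadjusted p under 0.05, Pdgfra and Pdgfrb were higher with lactate, at log2 fold changes of 0.99 and 0.56, and Col3a1 and Prrx1 were lower at -0.90 and -0.57. The part of these marker differences in the results was not tested. In bulk RNA, fewer cells of a type and less RNA per cell cannot be told apart. Mitochondrial genes took 5.48 and 2.43% of the reads in replicates 1 and 2 of the control, against 5.72 and 2.82% in those of lactate, so the replicate numbers stood further apart than the groups, whose ranges overlapped. Leaving the mitochondrial genes out gave log2 fold changes between -1.12 for Castor1 and 0.73 for Sesn2, with each of the 10 genes on the same side of 0.

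Expression per transcript length was compared on the TPM scale in the control libraries. Eif4ebp1 stood first at 254.9 ± 27.5 TPM (SD, n = 2), followed by Ddit4 at 67.9 ± 2.87 TPM and Sesn2 at 43.3 ± 2.69 TPM. Depdc5, Flcn and Castor1 came next at 33.5 ± 5.62, 30.4 ± 6.0 and 29.2 ± 4.56 TPM, and the ranges of neighbours in this order overlapped. Fnip2 and Fnip1 had 16.6 ± 1.35 and 15.9 ± 1.65 TPM, again with overlapping ranges. Rragd followed at 13.4 ± 1.53 TPM, and Ddit4l was lowest at 7.66 ± 2.18 TPM. All 10 genes are protein coding, no other gene in the GENCODE M21 annotation overlaps their exons, and all 10 passed the filter on low counts.

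Lactate was compared with control by edgeR's quasi-likelihood test over 18661 genes. Calls needed a Benjamini-Hochberg adjusted p under 0.05 and a difference of over 2-fold. None of the 10 genes was called by edgeR in either direction, while 0.552% of all genes tested were called higher and 0.348% lower. At an unadjusted p under 0.05, Sesn2, Eif4ebp1 and Fnip2 were higher and Castor1 was lower, which is 3 and 1 of 10, against 11.7% and 11.4% of all genes tested. By DESeq2 only Sesn2, higher, and Castor1, lower, had an unadjusted p under 0.05, against 6.37% and 8.75% of these genes. In 4 genes (Sesn2, Eif4ebp1, Rragd and Fnip2) each lactate library was above each control, and in 3 genes (Castor1, Ddit4l and Depdc5) each was below, against 27.0% and 25.9% of all genes tested. DESeq2 called 1 of the 10 genes, Castor1, lower. Of the 16922 genes it tested, it called 1.12% higher and 0.993% lower. The median log2 fold change of the 10 genes was 0.28, and that of all genes tested was 0.01. The median size of the change, whatever its sign, was 0.34 for the 10 genes and 0.28 for all genes tested. The labels do not say that the libraries came from separate cultures, so the p-values measure the spread between these libraries, which may be technical. For a single value, 2 libraries against 2 cannot give a two-sided exact permutation p below 0.33.

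**Figure D1:**
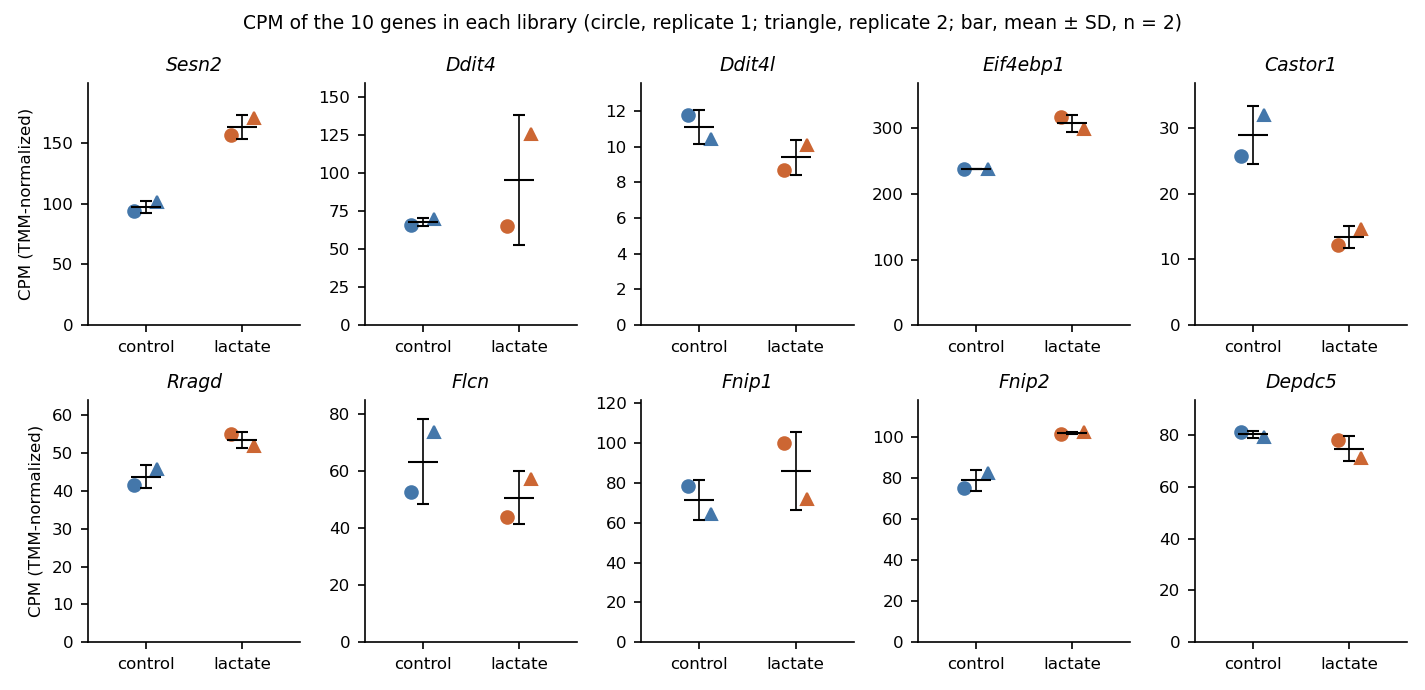
CPM of the 10 genes (reads of the gene relative to the library total, TMM-normalized, vertical axes from 0) in control (blue) and lactate (orange) libraries, with circles for replicate 1, triangles for replicate 2, and bars for the mean ± SD (n = 2). Sesn2, Eif4ebp1, Rragd and Fnip2 lie higher and Castor1, Ddit4l and Depdc5 lower in both lactate libraries than in both controls, and the 2 lactate libraries of Ddit4 lie far apart at 65.1 and 125.8 CPM.

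Of the amino acid sensors, Sesn2 (chromosome 4, 132492032 to 132510501, minus strand, GRCm38) encodes sestrin 2, which binds leucine and, when leucine is scarce, holds back the mTORC1 activator GATOR2. Its CPM (counts of the gene relative to the library total, scaled by TMM) were 94.1 and 101.1 in the control libraries and 156.2 and 170.3 CPM in the lactate libraries. Both lactate libraries were above both controls, with means of 97.6 ± 4.95 and 163.3 ± 9.97 CPM (SD, n = 2), or 1.67-fold higher with lactate. The log2 fold change was 0.74 (SE 0.13, 95% interval 0.42 to 1.06), with an edgeR adjusted p of 0.0565, so it missed the threshold on p as well as that on fold. DESeq2 gave 0.72 (SE 0.20) with an adjusted p of 0.00905. Over 16 alternatives the adjusted p ranged from 9.8e-09 by edgeR with a replicate term to 0.243 by limma on FPKM. With the replicate term, 44.5% of all genes tested had an adjusted p under 0.05.

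Castor1 (chromosome 11, 4218225 to 4222409, plus strand) encodes a sensor that binds arginine and restrains GATOR2 when arginine is scarce. It had 25.8 and 32.0 CPM in the control libraries and 12.2 and 14.6 CPM in the lactate libraries. Both lactate libraries lay below both controls, and the means of 28.9 ± 4.42 and 13.4 ± 1.69 CPM (SD, n = 2) made it 2.16-fold lower with lactate. Of the 10 genes it had the smallest p and the only difference of more than 2-fold. The log2 fold change was -1.11 (SE 0.19, 95% interval -1.57 to -0.65), with an edgeR adjusted p of 0.0539, just outside the threshold. DESeq2 gave -1.13 (SE 0.25) with an adjusted p of 0.000809. Over 16 alternatives the adjusted p ranged from 3.5e-08, by edgeR with the same replicate term, to 0.243 by limma on FPKM. The log2 fold change was -1.01 and -1.25 without lactate replicate 1 or 2, and -1.27 and -0.95 without control replicate 1 or 2.

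Sesn2 and Castor1 had the smallest p of the 10 genes, so the 100 bases before the outermost annotated start of each are shown, 5′ to 3′ on the strand of the gene, from RefSeq sequence of GRCm38.p6. Castor1 is chr11:4218125-4218224 on the plus strand, with 72.0% G and C. Sesn2 is chr4:132510502-132510601 on the minus strand, with 68.0% G and C.
Castor1: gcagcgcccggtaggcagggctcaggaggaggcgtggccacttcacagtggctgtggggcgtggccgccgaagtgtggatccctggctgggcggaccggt
Sesn2: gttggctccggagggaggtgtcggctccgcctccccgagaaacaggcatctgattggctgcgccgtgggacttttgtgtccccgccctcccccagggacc
Neither stretch carries capitals, because none of the letters searched was found there. The search covered 300 bases around the RefSeq start (250 before, 50 after) on both strands, for 9 of the 10 genes, since Eif4ebp1 had no window. The RefSeq start can differ from the outermost start in GENCODE, as for Ddit4l, at 137623672 against 137621612. The last 20 bases of the window were found in an annotated transcript of the gene for 8 of the 9, and not for Rragd. TGATGNAA, the core of the amino acid response element bound by ATF4 with C/EBP factors, was in 0 of 9 windows and in 3.97% of 32851 windows of all genes. That says only that these letters are not in these windows.

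The genes with the CPM pattern closest to Castor1 over the 4 libraries were Mvd, Galnt18 and Hspa5, chosen by the smallest distance between centred log2 CPM. Mvd, for an enzyme of cholesterol synthesis, lay at a distance of 0.0655, with 33.8 and 39.9 CPM in the control and 15.6 and 18.1 CPM in the lactate libraries. Hspa5, for the main chaperone of the endoplasmic reticulum, lay at 0.0891, with 528.7 and 617.5 CPM in the control and 231.7 and 281.4 CPM in the lactate libraries. Galnt18 lay between them at 0.0752, and the median distance of all genes from Castor1 was 1.2. By edgeR, Mvd (log2 fold change -1.13, adjusted p = 0.0492) and Hspa5 (-1.16, adjusted p = 0.0467) were called lower and Galnt18 (-1.22, adjusted p = 0.0839) was not.

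Depdc5 (chromosome 5, 32863701 to 32994236, plus strand) encodes a subunit of GATOR1, the complex that switches off RagA and RagB when amino acids are scarce. It had 81.1 and 79.2 CPM in the control libraries and 78.1 and 71.1 CPM in the lactate libraries. Both lactate libraries were below both controls, but by little, with means of 80.1 ± 1.35 and 74.6 ± 4.91 CPM (SD, n = 2). edgeR gave a log2 fold change of -0.10 (SE 0.13, 95% interval -0.41 to 0.21; adjusted p = 0.687). With a library left out it lay between -0.20 and -0.04. On the TPM scale the order was turned, with 37.5 and 29.5 TPM in the control and 46.7 and 38.9 TPM in the lactate libraries. The effective length that RSEM assigned to Depdc5, which depends on the estimated mix of its transcripts, was 2740 and 3453 bases in the control and 2275 and 2377 bases in the lactate libraries. It was thus shorter in both lactate libraries, by 0.40 on the log2 scale, and the direction of Depdc5 depended on whether reads or length-corrected values were compared. Which transcripts of Depdc5 the libraries held was not tested.

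**Figure D2:**
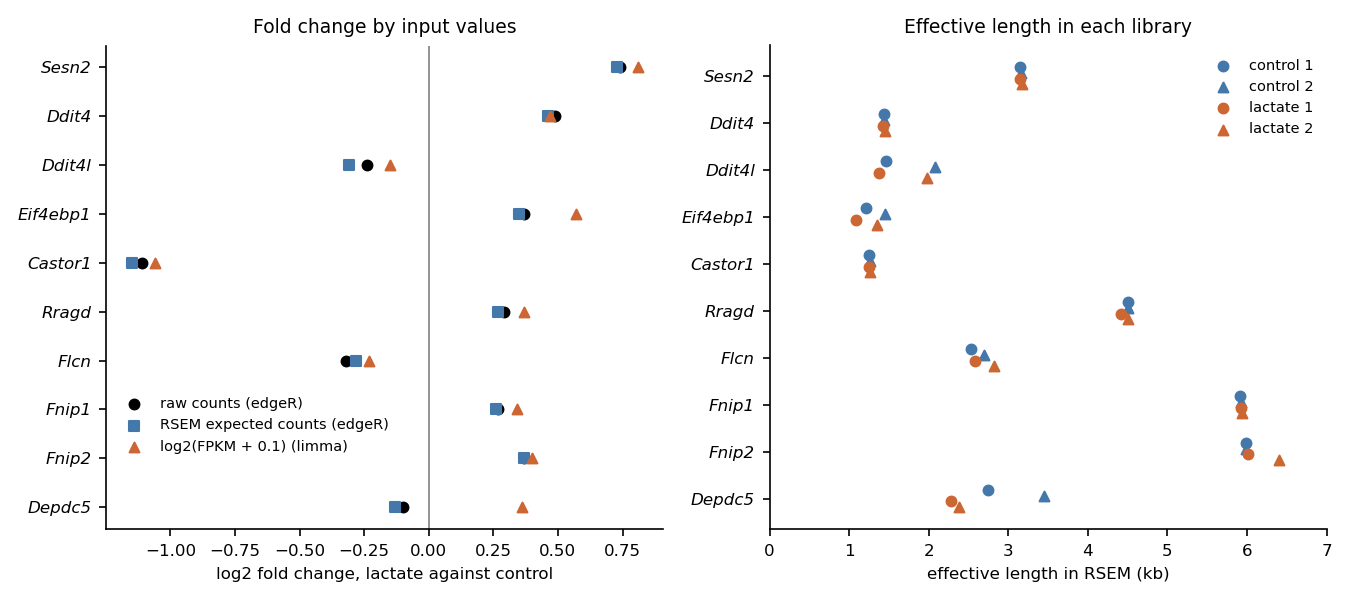
Left, log2 fold change of each gene (horizontal axis) from raw counts, from RSEM expected counts and from log2(FPKM + 0.1); right, RSEM effective length in kilobases in each library. Depdc5 is at -0.10 by counts and at 0.36 by FPKM, and its effective length is shorter in both lactate libraries.

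The other 9 genes had the same sign on all 3 scales. Effective length differed by more than 1.3 times between libraries in Ddit4l, at 1.51 times from shortest to longest, and in Eif4ebp1, at 1.33 times. For Eif4ebp1 the log2 fold change was 0.37 by counts and 0.57 by FPKM, and for Ddit4l it was -0.24 by counts and -0.15 by FPKM. Sesn2 and Castor1 had lengths within 1.01 and 1.02 times between libraries, with 0.81 and -1.06 by FPKM.

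The folliculin branch activates RagC and RagD. Flcn (chromosome 11, 59791408 to 59810016, minus strand) encodes folliculin, which with its partners FNIP1 or FNIP2 stimulates GTP hydrolysis by RagC and RagD. It had 52.9 and 73.8 CPM in the control libraries and 44.1 and 57.4 CPM in the lactate libraries. The groups overlapped, since lactate replicate 2 lay above control replicate 1, and the means were 63.3 ± 14.8 and 50.8 ± 9.42 CPM (SD, n = 2). edgeR gave a log2 fold change of -0.32 (SE 0.21, 95% interval -0.84 to 0.20; adjusted p = 0.420). It was -0.56 without control replicate 1 and -0.06 without control replicate 2.

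Fnip1 (chromosome 11, 54438199 to 54518235, plus strand) had 78.5 and 64.2 CPM in the control libraries and 99.7 and 71.9 CPM in the lactate libraries. The groups overlapped here too, and only lactate replicate 1 was above both controls. Its log2 fold change was 0.27 (SE 0.20, 95% interval -0.21 to 0.75; edgeR adjusted p = 0.472), and it was -0.02 without lactate replicate 1. Replicate 1 was the higher of each group for Fnip1 and replicate 2 the higher for Flcn, beside the mitochondrial shares and pluripotency sums that also differed by replicate number. With mitochondrial genes left out, the log2 fold change was 0.25 for Fnip1 and -0.33 for Flcn.

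Fnip2 (chromosome 3, 79455974 to 79567796, minus strand) had 75.3 and 82.5 CPM in the control libraries and 101.5 and 102.3 CPM in the lactate libraries. Both lactate libraries were above both controls and close together, with means of 78.9 ± 5.09 and 101.9 ± 0.627 CPM (SD, n = 2), or 1.29-fold higher with lactate. The log2 fold change was 0.37 (SE 0.13, 95% interval 0.06 to 0.68), with an unadjusted p of 0.0265 and an adjusted p of 0.161 by edgeR. Within the pair, Fnip1 took 52.2 and 45.7% of the summed TPM in the control, against 50.4 and 45.2% in the lactate libraries, so the shares overlapped between groups.

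Among the 9 promoter windows, the CRE letters TGACGTCA were found in Flcn only, and the E-box letters CACGTG in Fnip1 only. Of 32851 windows, 1.79% hold TGACGTCA and 7.15% hold CACGTG. Both stretches are shown because they are the only matches of these letters in the 9 windows searched, with the matching letters in capitals and each 5′ to 3′ on the strand of its gene. The Flcn stretch is chr11:59810055-59810114 on the minus strand, with the match at bases -49 to -42 before the RefSeq start. The Fnip1 stretch is chr11:54438078-54438135 on the plus strand, with the match at bases -75 to -70.
Flcn: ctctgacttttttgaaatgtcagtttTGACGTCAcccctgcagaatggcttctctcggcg
Fnip1: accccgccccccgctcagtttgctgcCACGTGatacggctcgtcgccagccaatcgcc
Neither gene was called by edgeR or DESeq2, and a match of letters is a description and not a binding site.

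Rragd (chromosome 4, 32983037 to 33022180, plus strand) encodes RagD, one of the GTPases that folliculin acts on and a known target of the MiT/TFE factors. It had 41.5 and 45.8 CPM in the control libraries and 54.9 and 51.9 CPM in the lactate libraries. Both lactate libraries were above both controls, with means of 43.6 ± 3.07 and 53.4 ± 2.13 CPM (SD, n = 2). Its log2 fold change was 0.29 (SE 0.13, 95% interval -0.03 to 0.61; edgeR adjusted p = 0.259). Its paralogue Rragc, which encodes RagC, had a log2 fold change of -0.23 (edgeR adjusted p = 0.368). RagD transcripts took a larger share of the summed TPM of the pair, at 27.6 and 28.5% in the control, against 36.0 and 37.4% in the lactate libraries.

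Ddit4 (chromosome 10, 59949669 to 59951834, minus strand) encodes REDD1, a stress-induced protein that restrains mTORC1 through the TSC complex. It had 66.2 and 69.7 CPM in the control libraries and 65.1 and 125.8 CPM in the lactate libraries. The groups overlapped, because lactate replicate 1 lay below both controls while replicate 2 lay far above them, at means of 67.9 ± 2.53 and 95.5 ± 42.9 CPM (SD, n = 2). Its log2 fold change was 0.49 (SE 0.29, 95% interval -0.22 to 1.2; edgeR adjusted p = 0.370). It rested on lactate replicate 2, since it was -0.06 without that library and 0.86 without lactate replicate 1.

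Ddit4l (chromosome 3, 137621612 to 137628333, plus strand) encodes REDD2, the paralogue of REDD1. It had 11.8 and 10.4 CPM in the control libraries and 8.72 and 10.1 CPM in the lactate libraries, from 162 to 204 reads per library. Both lactate libraries were below both controls in CPM, by a small margin for replicate 2. On the TPM scale the groups overlapped, at 9.2 and 6.12 TPM in the control and 7.58 and 6.03 TPM in the lactate libraries. edgeR gave -0.24 on the log2 scale (SE 0.19, 95% interval -0.69 to 0.21; adjusted p = 0.487). Ddit4 made up 87.7 and 92.0% of the summed TPM of the pair in the control, against 90.2 and 95.5% in the lactate libraries, so the shares overlapped on the TPM scale. Without correction for length, its share of the reads was 84.9 and 87.0% in the control, against 88.2 and 92.6% in the lactate libraries, and did not overlap.

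Eif4ebp1 (chromosome 8, 27260329 to 27276674, plus strand) encodes 4E-BP1, the repressor of the cap-binding protein eIF4E. It had 237.9 and 238.3 CPM in the control libraries and 317.3 and 298.5 CPM in the lactate libraries. Both lactate libraries were above both controls, whose values were nearly equal, and the means of 238.1 ± 0.309 and 307.9 ± 13.3 CPM (SD, n = 2) made it 1.29-fold higher with lactate. The log2 fold change was 0.37 (SE 0.13, 95% interval 0.06 to 0.69), with an unadjusted p of 0.0276 and an adjusted p of 0.164 by edgeR.

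**Figure D3:**
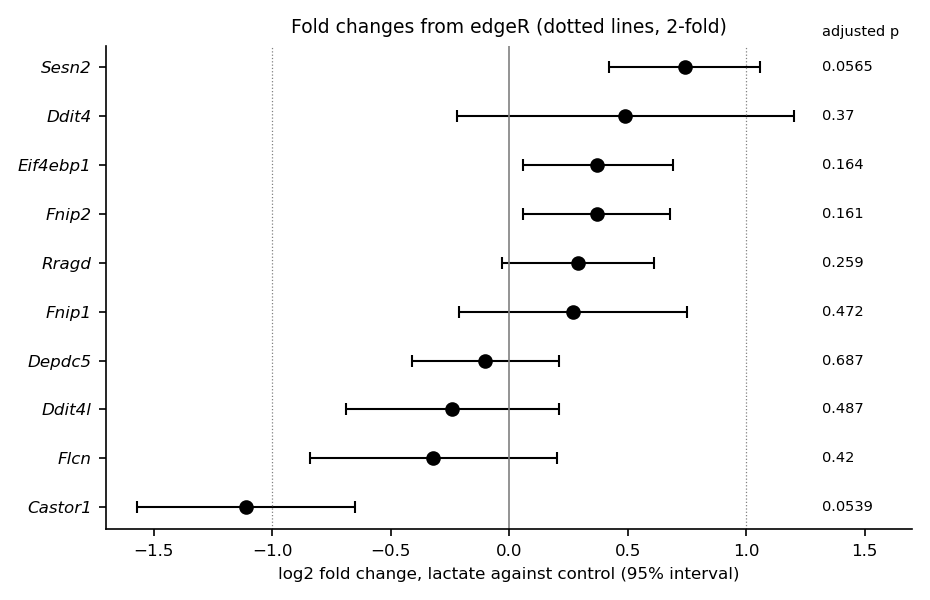
Log2 fold change of each gene, lactate against control, from edgeR, with bars for the 95% interval and the adjusted p at the right. The intervals of Sesn2, Eif4ebp1 and Fnip2 lie above 0 and that of Castor1 lies below 0, while the other 6 cross 0.

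Several of the 10 genes have close paralogues, and the share of each in the summed TPM of its group was compared as a description with no test. Sesn2 took 67.8 and 68.7% of the sestrin TPM in the control, against 79.6 and 81.9% in the lactate libraries, a mean difference of 12.5 percentage points. Sesn1 took 20.3 and 21.8% in the control, against 10.1 and 9.94% in the lactate libraries, and Sesn3 overlapped between groups. The summed sestrin TPM was 61.1 and 65.8 in the control, against 92.3 and 96.0 in the lactate libraries. By edgeR, Sesn1 had a log2 fold change of -0.51 (adjusted p = 0.128) and Sesn3 of 0.32 (adjusted p = 0.261), so neither was called.

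Castor1 took 94.9 and 95.8% of the TPM shared with Castor2 in the control, against 90.3 and 92.5% in the lactate libraries. Their sum was 27.4 and 33.9 TPM in the control and 14.4 and 16.1 TPM in the lactate libraries, while Castor2 had a log2 fold change of -0.17 (edgeR adjusted p = 0.636). The mean share of Castor1 thus differed by -3.99 percentage points on the TPM scale, and by -12.4 points without correction for length. Eif4ebp1 took 77.0 and 69.8% of the 4E-BP TPM in the control, against 86.1 and 79.9% in the lactate libraries, and Eif4ebp2 took most of the rest. Without correction for length, Eif4ebp1 took 41.5 and 41.2% of the reads in the control, against 54.0 and 50.2% in the lactate libraries. Eif4ebp2 then took 57.5 and 57.7% in the control, against 45.2 and 48.8% in the lactate libraries. Eif4ebp2 had a log2 fold change of -0.25 (adjusted p = 0.310) and Eif4ebp3 of -0.07 (adjusted p = 0.890) by edgeR. The shares of Sesn2, Eif4ebp1 and Rragd were thus higher in both lactate libraries than in both controls, and that of Castor1 was lower. How often the shares in other paralogue groups differ in this way was not counted.

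**Figure D4:**
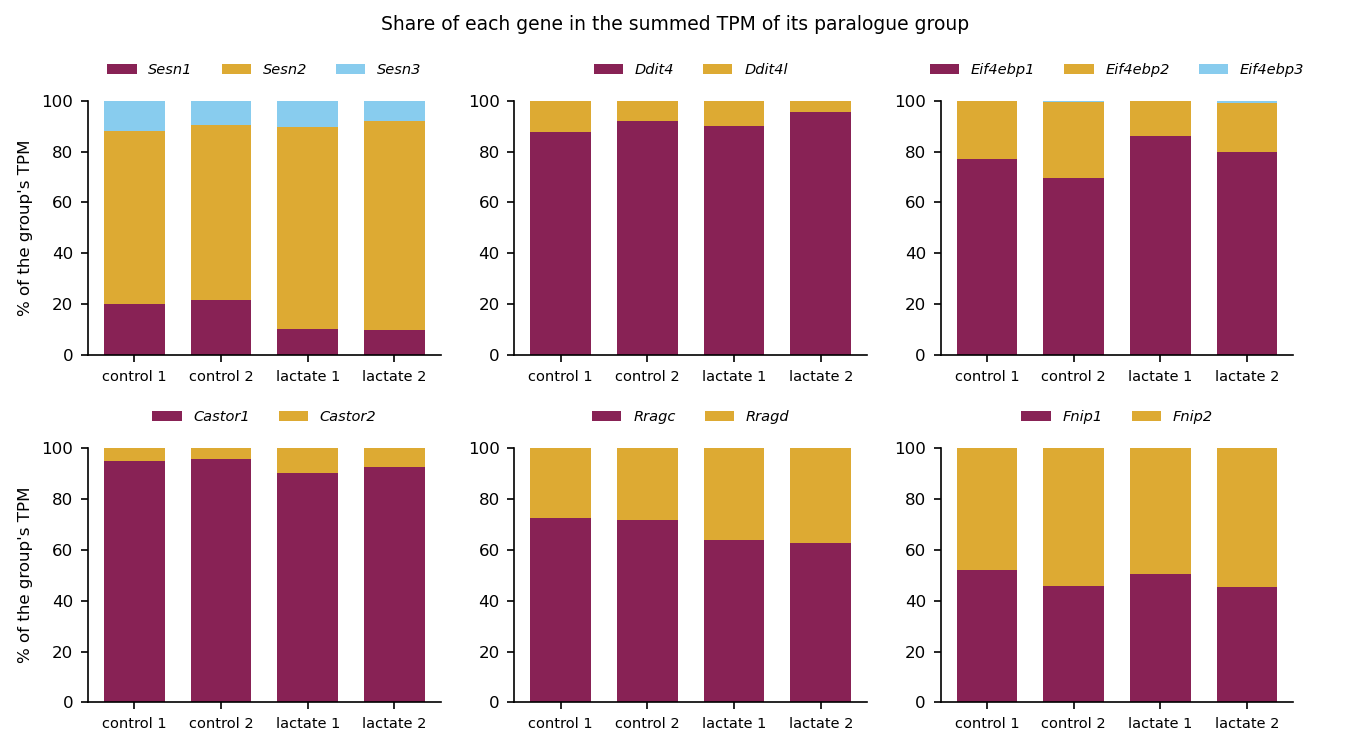
Stacked bars of the percentage of the summed TPM of each paralogue group (vertical axis, 0 to 100) taken by each gene, with 1 bar per library. Sesn2 takes 67.8 and 68.7% of the sestrin group in the control, against 79.6 and 81.9% in the lactate libraries, and Rragd takes more of the Rragc and Rragd pair in both lactate libraries.

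The rest of the pathway was followed on 7 lists that together hold 79 genes, of which 77 were tested. By edgeR none was called in either direction, against 0.552% of all genes tested called higher and 0.348% lower. At an unadjusted p under 0.05, 8 were higher and 8 lower (10.4% each, against 11.7% and 11.4% of all genes tested), and the median log2 fold change was -0.05. DESeq2 called 1 of them, Itfg2, higher, against 1.12% of the 16922 genes it tested. At an unadjusted p under 0.05 by DESeq2, 5 were higher and 7 lower, against 6.37% and 8.75% of the 18661 genes. The subunits of the mTOR complexes themselves, 11 genes that include the kinase Mtor, ranged from -0.38 to 0.33 on the log2 scale, and 0 of them had an unadjusted p under 0.05 by edgeR or DESeq2. Mtor had 123.8 and 141.7 CPM in the control and 124.5 and 132.2 CPM in the lactate libraries.

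Among the genes that act with the Rag GTPases, Slc38a9, the lysosomal arginine transporter that signals to mTORC1, had 18.2 and 17.1 CPM in the control and 30.3 and 30.5 CPM in the lactate libraries. Its log2 fold change was 0.79 (SE 0.15; edgeR adjusted p = 0.0587), and the other 8 genes of that list had an unadjusted p above 0.05. Slc38a9 and Castor1 both bind arginine, and they differed from control in opposite directions, although neither was called by edgeR. Of the 10 GATOR and KICSTOR genes tested, Itfg2, a KICSTOR subunit, had 23.1 and 30.1 CPM in the control and 53.0 and 69.9 CPM in the lactate libraries. It had a log2 fold change of 1.21 (SE 0.20; edgeR adjusted p = 0.0526), and Mios, a GATOR2 subunit, had 0.46 (adjusted p = 0.141). Kics2 had no row under that symbol.

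Of the 6 other nutrient sensors, Lars, the leucyl-tRNA synthetase, had a log2 fold change of 0.56 (edgeR adjusted p = 0.115). Tm4sf5 had 0.91 (edgeR adjusted p = 0.209), but from 7 and 9 reads in the control and 17 and 15 reads in the lactate libraries. The TSC complex, Rheb and the kinases above them made up 20 genes. At an unadjusted p under 0.05 by edgeR, 2 were higher and 3 lower, against 11.7% and 11.4% of all genes tested. Irs1, the insulin receptor substrate, had -0.94 (edgeR adjusted p = 0.123), but from 33 and 42 reads in the control and 19 and 22 reads in the lactate libraries. Akt2, a kinase that inhibits the TSC complex, had -0.74 (edgeR adjusted p = 0.0678). The TSC subunits Tsc1 and Tsc2 had -0.01 and -0.11, and the third, Tbc1d7, had 0.57 (SE 0.18, unadjusted p = 0.0171, adjusted p = 0.136 by edgeR), with 8.79 and 9.49 CPM in the control and 12.7 and 14.4 CPM in the lactate libraries. Among 18 substrates and cap-binding genes, Eif4b and Eif4a1, for a helicase cofactor and the helicase that unwinds messenger RNA for translation, had -0.61 (adjusted p = 0.0818) and -0.46 (adjusted p = 0.185) by edgeR. Both had lower CPM in each lactate library than in each control, in contrast to Eif4ebp1.

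The MiT/TFE factors, which regulate lysosomal genes and which mTORC1 keeps out of the nucleus, had 3 members tested and none called by edgeR. At an unadjusted p under 0.05, 1 was higher and 2 were lower, against 11.7% and 11.4% of all genes tested. Mitf had 44.1 and 34.6 CPM in the control and 86.2 and 67.5 CPM in the lactate libraries, a log2 fold change of 0.97 (SE 0.19; edgeR adjusted p = 0.0631). Tfeb had 48.5 and 53.4 CPM in the control and 28.1 and 33.3 CPM in the lactate libraries, a log2 fold change of -0.73 (SE 0.15; edgeR adjusted p = 0.0678). Tfe3 had 86.8 and 75.3 CPM in the control and 64.0 and 54.5 CPM in the lactate libraries, a log2 fold change of -0.45 (SE 0.15; edgeR adjusted p = 0.151). Tfec was too low to be tested.

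The ATF4 axis, the response to amino acid shortage and stress of which Sesn2 and Ddit4 are known targets, was counted in the same way. This list, like the others, was set with earlier results of these data known. Of its 10 genes, 6 were called higher by edgeR, led by Chac1 at a log2 fold change of 4.10 (adjusted p = 0.0165) and followed by Atf3, Nupr1, Trib3, Ddit3 and Cebpg, against 0.552% of all genes tested. Each of the 10 was higher at an unadjusted p under 0.05, against 11.7% of all genes tested. Atf4 itself was not called, at a log2 fold change of 1.0 (edgeR adjusted p = 0.0688). The median log2 fold change was 1.21 on that list and 0.28 among the 10 mTORC1 genes, which include both activators and restraints. The table has 2 gene identifiers for Ddit3, and the one with more reads was used.

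**Figure D5:**
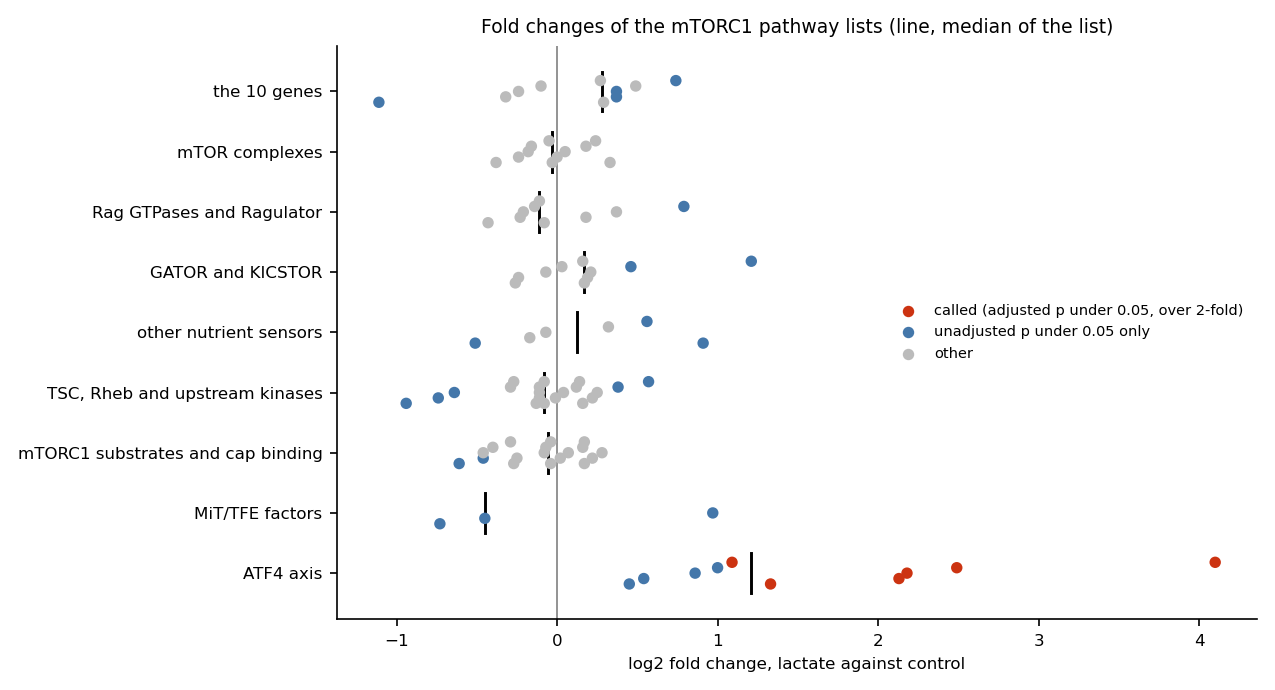
Log2 fold change from edgeR (horizontal axis) of the 10 genes and of every tested gene of 8 pathway lists (rows). A black line marks each median. Points are red if called, blue at an unadjusted p under 0.05 only, and grey otherwise. Called genes are seen only in the ATF4 axis, and Castor1 is the lowest point among the 10 genes.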

How the data were processed

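The deposited table of raw read counts (55335 genes, 1153 families of transposable elements, the latter left out here) was made by the authors with cutadapt 1.16, STAR and its exon counts on mm10, by the submitters' notes and the methods. The authors also deposited RSEM expected counts, TPM, FPKM and effective length per library. Expected counts summed to between 15738305 and 16682829. Strand use in counting is not given in the sources used here. Counts were filtered with filterByExpr, normalized by TMM and tested with edgeR 4.0.16 (legacy quasi-likelihood form, no replicate term) in R 4.3.3. CPM are counts relative to the library total after TMM. Standard errors were the fold change over the square root of F, and expected counts were rounded before testing. Alternatives were DESeq2 1.42.0, RLE and upper-quartile factors, library totals, no filter, a minimum of 10 counts per library, a replicate term, expected counts, limma 3.58.1 on FPKM (mean over 0.1, log2 with a pseudocount of 1 or 0.1), edgeR without its legacy form, mitochondrial genes left out, the adjusted p alone, and each library left out. The tests were tested on simulated data. Replicates differed beyond sampling noise, with a chi-square per degree of freedom of 22.3 in control and 21.6 in lactate. Positions are from GENCODE M21 on GRCm38, and promoters from RefSeq. The genes, lists and tests were chosen with earlier results of these data known. Named were all 10 genes and their paralogues, called list genes and up to 2 more per list by size of change at an unadjusted p under 0.05, the 3 genes closest to the member with the smallest p, and the leading markers. Mtor, Tsc1, Tsc2, Tbc1d7, Tfe3, Atf4 and the markers with an unadjusted p under 0.05 were named after their values were seen.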

Additional observations from a re-analysis of the deposited data

How the results depend on the processing

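Of 160 values (the log2 fold changes of the 10 genes under 16 alternatives), 151 kept their direction and their side of the joint threshold on adjusted p and fold. The adjusted p alone was under 0.05 in 16 values, 5 of them for Castor1 and 4 for Sesn2. Castor1 was called under 5 of them: DESeq2, no filter on low counts, the replicate block, and without lactate replicate 1 or 2. The number of the 10 genes called lower was therefore 1 there against 0, and between 0 and 1 with a library left out. Direction turned for Ddit4 (-0.06 to 0.86 with a library left out), Fnip1 (-0.02 to 0.48) and Depdc5 (0.34 and 0.36 by limma on log2(FPKM + 1) and log2(FPKM + 0.1)). Across all genes, 103 were called higher and 65 lower, against 190 and 168 by DESeq2, 482 and 325 without the filter, and 27 and 17 on RSEM expected counts. With library totals alone 40 were called lower. Leaving out a library gave 45 to 502 higher and 39 to 367 lower, with the lone library of a group assumed to vary like the others. By limma on either FPKM scale 0 were called in either direction. At an unadjusted p under 0.05 by limma, 1791 were higher and 1123 lower at a pseudocount of 1, and 1819 and 1135 at 0.1. The number of ATF4 axis genes called higher went from 6 by edgeR to 0 by limma. The causes were not tested. With the replicate block 761 genes were called higher and 395 lower, 1156 against 168 in all, and 8 of the 10 genes had an adjusted p under 0.05 by edgeR, as did 44.5% of all genes tested. Same-numbered libraries deviated together (r = 0.561 across 18661 genes, which are not independent replicates), but the labels do not say that a number marks a shared culture or day. The precision is limited by 2 libraries per group, with a common biological coefficient of variation of 15.9%.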
